A study of Homo sapiens with 9 samples.

Results

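The zinc finger genes of chromosome 19 were examined in TE13 cells, an established cell line of esophageal squamous cell carcinoma (ESCC), after siRNA knockdown of PARylator (LINC00885), a long noncoding RNA. Members were the genes on chromosome 19 whose symbol is ZNF followed by a number, chosen by their mean FPKM of at least 0.5 over all 9 libraries. FPKM is the count of a gene scaled by its exonic length and by the total count of its library. Of 263 such symbols among the 60605 genes listed, 185 were members, with 51 of 93 on the short arm (19p) and 134 of 170 on the long arm (19q), and 19 of the 263 had no count in any library.

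The 3 groups were TE13 cells given a control siRNA or 1 of 2 siRNAs to PARylator (siRNA.1, siRNA.2), each of 3 libraries of poly(A)+ RNA from bulk cells. The siRNA.1 and siRNA.2 comparisons share the control libraries, so they are not independent of each other. Time after transfection is not given in the sources used here, and the study calls its libraries experimental repeats without saying whether they came from separate cultures, so p-values measure the spread between these libraries only. In bulk RNA, more cells with a transcript and more transcript per cell cannot be told apart.

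Most zinc finger proteins of this chromosome carry a KRAB box, a domain near the amino terminus that recruits the corepressor TRIM28. TRIM28 in turn brings the histone methyltransferase SETDB1 and heterochromatin proteins, and many KRAB zinc finger proteins hold transposable elements silent in this way. Their genes arose by tandem duplication and lie in dense clusters on both arms, in stretches of chromatin that carry both active transcription and repressive marks.

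Library totals were between 15337917 and 22559998 counts on genes, and the scaling factors (TMM) were between 0.989 and 1.017. For LINC00885 itself 6, 7 and 12 counts were found in controls, 4, 5 and 2 after siRNA.1 and 2, 0 and 4 after siRNA.2. Its log2 fold change was -1.21 ± 0.95 (SE) after siRNA.1 (adjusted p = 0.376) and -2.33 ± 1.0 after siRNA.2 (adjusted p = 0.0659), so the lower counts did not pass the test at this depth. All 7 squamous markers listed were at 8.24 FPKM or above in every library, with TP63 between 18.41 and 22.01 FPKM, while the 6 markers of other cell types were at most 2.17 FPKM (COL1A1), with CD3E at most 0.02 FPKM. Several of these markers themselves moved. KRT5, a basal keratin, fell from 142 ± 8.29 FPKM in controls (SD, n = 3) to 40 ± 2.81 after siRNA.1 and 55.8 ± 2.85 after siRNA.2 (log2 -1.86 and -1.36). KRT17, TP63 and CDH1 fell by 0.15 to 0.53 on the log2 scale and KRT6A and DSG3 rose by 0.27 to 0.58, with both siRNAs, while KRT14 did not pass the test. COL1A1 fell by 0.55 and 0.52, and PTPRC, at most 0.22 FPKM, rose by 2.15 and 2.12 (adjusted p = 0.000256 and 0.000265). Their part in the results was not tested.

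The sequence at the start of these genes is shown first, because it was not used to choose the members. RefSeq promoters (build GRCh38.p14, 250 bases before to 50 after the start of a gene) were matched by symbol for 160 of the 185 members and for 27305 genes in all. The letters CCGGAAGT, the core of an ETS factor motif, were searched on both strands and were present in 37 of the 160 promoters, or 23.1%. The same letters were present in 14.9% of the 175 matched promoters of ZNF genes of other chromosomes, 6.69% of 613 promoters of other chromosome 19 genes, 9.11% of 10015 promoters of genes of at least 0.5 FPKM, and 4.44% of all 27305. A match is a description of the letters and not evidence of a bound factor. Windows around the motif are printed 5′ to 3′ on the strand of the gene, with the motif in capitals, for 5 members chosen after their values were seen, to show the motif and the letters beside it.
ZNF766, chr19:52269571-52269618, plus strand: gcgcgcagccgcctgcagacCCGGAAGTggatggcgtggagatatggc
ZNF160, chr19:53103391-53103438, minus strand: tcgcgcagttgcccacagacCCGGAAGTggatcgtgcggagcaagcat
ZNF419, chr19:57487712-57487759, plus strand: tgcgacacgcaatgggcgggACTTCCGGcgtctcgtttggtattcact
ZNF551, chr19:57681960-57682007, plus strand: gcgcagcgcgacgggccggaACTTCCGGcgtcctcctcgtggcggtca
ZNF776, chr19:57746776-57746823, plus strand: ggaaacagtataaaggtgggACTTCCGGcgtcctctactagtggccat

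In ZNF766 and ZNF160 the motif was read on the strand of the gene and began 4 bases after the annotated start, and the letters on either side were alike. In ZNF419, ZNF551 and ZNF776 it was read on the opposite strand, beginning at positions -18, 3 and -19 from the start. In other members that rose it began at 3 in ZNF550, -10 in ZNF829, -87 in ZNF283, -104 in ZNF567 and -150 in ZNF256. ZNF787 held it at 0, -165 and -169. The ZNF567 window begins at chr19:36666810, while the deposited annotation starts that gene at 36687612. The exact letters TATAAAA, 1 form of the box bound by TBP, were in 0% of the member promoters and in 0.571% of those of ZNF genes of other chromosomes. They were in 1.9% of those of genes of at least 0.5 FPKM and 4.71% of all promoters. Near forms, such as the letters tataaag in the ZNF776 window, were not searched, so 0% does not mean that the box is absent. The letters TGACGTCA, a cyclic AMP response element, were in 4.38% of the member promoters, near the 4.57% of ZNF genes of other chromosomes, 4.24% of other chromosome 19 genes and 3.33% of genes of at least 0.5 FPKM, and in 1.98% of all promoters. Of the other motifs searched, those of NRF1, ZBTB33, YY1 and ZNF143 were in 1.25% to 2.5% of the member promoters and an interferon response element in 0%. In ZNF genes of other chromosomes these shares were 0.571% to 3.43% and 1.71%. In genes of at least 0.5 FPKM they were 0.569% to 2.94% and 2.87%. Member promoters held a median of 20 CG dinucleotides, against 25 over those of ZNF genes of other chromosomes, 14 over all promoters and 26 over those of genes of at least 0.5 FPKM. Members with and without CCGGAAGT had like median log2 fold changes, 0.22 and 0.21 after siRNA.1 and 0.22 and 0.20 after siRNA.2, over 37 and 123 genes.

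For comparison with the windows, the whole promoters of ZNF350 (chr19:51986791-51987090, minus strand) and ZNF766 (chr19:52269337-52269636, plus strand) are given, since these members lie in the same cluster and both rose with each siRNA. ZNF766 holds 26 CG dinucleotides and the ETS letters in capitals, and ZNF350 holds 17 CG dinucleotides and none of the letters searched.
ZNF350: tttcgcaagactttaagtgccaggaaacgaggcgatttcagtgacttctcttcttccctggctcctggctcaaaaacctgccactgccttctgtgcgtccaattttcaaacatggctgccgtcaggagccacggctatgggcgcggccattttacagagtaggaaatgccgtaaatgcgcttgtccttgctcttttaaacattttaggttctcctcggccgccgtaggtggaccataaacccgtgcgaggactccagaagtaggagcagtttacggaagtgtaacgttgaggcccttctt
ZNF766: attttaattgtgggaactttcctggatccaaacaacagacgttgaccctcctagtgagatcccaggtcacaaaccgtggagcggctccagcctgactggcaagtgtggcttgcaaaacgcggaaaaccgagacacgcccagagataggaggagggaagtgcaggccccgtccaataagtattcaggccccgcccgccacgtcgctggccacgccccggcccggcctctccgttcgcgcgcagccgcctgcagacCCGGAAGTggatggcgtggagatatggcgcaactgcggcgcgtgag

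Members were expressed at low levels. Mean FPKM lay between 0.507 and 40.1 with a median of 2.20, against a median of 4.78 over all genes of at least 0.5 FPKM, and 35 members were under 1 FPKM while 3 were at 10 FPKM or above. Together they took 0.261% to 0.263% of each control library, between 0.298% and 0.316% after siRNA.1 and between 0.308% and 0.325% after siRNA.2. Just inside the threshold were ZNF571 at a mean of 0.507, ZNF433 at 0.528 and ZNF793 at 0.538 FPKM, and just outside it were ZNF573, ZNF568 and ZNF814 at 0.453, 0.441 and 0.427 FPKM. Since 6 of the 9 libraries behind this mean are siRNA libraries, genes that are higher after knockdown pass it more easily, and 6 members were under 0.5 FPKM in the control mean.

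The zinc finger genes of chromosome 19 were more often higher than lower after PARylator knockdown. With siRNA.1, 59 members rose and 5 fell past an adjusted p of 0.05 (edgeR quasi-likelihood test, Benjamini-Hochberg over all 21397 genes tested), and 121 did not pass. Over all genes tested 15% were called higher and 15.2% lower in that comparison, and over the 14866 genes of at least 0.5 FPKM 20% and 20.5%, against 31.9% and 2.7% of the members. With siRNA.2, 67 members were higher and 4 lower, or 36.2% and 2.16%, where all genes tested gave 15.8% and 15.1% and genes of at least 0.5 FPKM gave 21.1% and 20.3%. The members were chosen with these results known, so their counts are a description of the list.

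The median log2 fold change over the 185 members was 0.21 after siRNA.1 and 0.20 after siRNA.2, while over the genes of at least 0.5 FPKM it was -0.0036 and 0.013. Between the lower and upper quartiles the members lay between -0.029 and 0.38 after siRNA.1 and between 0.0072 and 0.39 after siRNA.2. Per library, the median of log2 CPM over the members differed from the control mean by -0.0076, -0.0062 and 0.01 in the control libraries, by 0.18, 0.22 and 0.23 after siRNA.1 and by 0.26, 0.18 and 0.25 after siRNA.2. All 6 siRNA libraries stood above all 3 control libraries in this median, with no overlap. The same held for ZNF genes of other chromosomes, at -0.0098 to 0.018 in controls and 0.11 to 0.20 in the siRNA libraries. Choosing members on the control libraries alone, a choice made after seeing the data, left 179 members with 56 higher and 5 lower after siRNA.1 and 64 higher and 4 lower after siRNA.2.

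**Figure D1:**
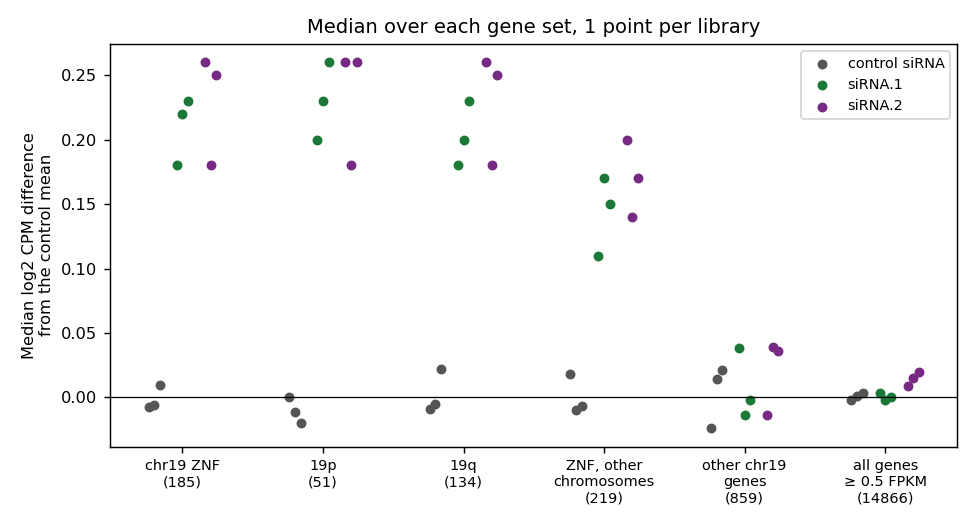
Median over each gene set of the difference in log2 CPM from the mean of the control libraries, 1 point per library, coloured by group, with the number of genes in parentheses. The siRNA libraries of the chromosome 19 ZNF genes lie between 0.18 and 0.26, those of ZNF genes of other chromosomes between 0.11 and 0.20, and those of other chromosome 19 genes between -0.014 and 0.039.

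Higher calls outnumbered lower ones on both arms. On 19p, 18 of 51 members were higher and 2 lower after siRNA.1, and 20 were higher and 0 lower after siRNA.2, with median log2 fold changes of 0.23 and 0.19. On 19q, 41 of 134 members were higher and 3 lower after siRNA.1, and 47 higher and 4 lower after siRNA.2, with medians of 0.20 in both comparisons. The 19q median minus the 19p median was -0.022 after siRNA.1 and 0.0077 after siRNA.2, and the sign of the first turned to 0.011 without siRNA.1 replicate 2 and that of the second to -0.055 without control siRNA replicate 2. No direction between the arms held when single libraries were left out.

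Counts were more even among genes of other symbols on the chromosome. Among 137 genes of other symbols that lie within the cluster spans and reach 0.5 FPKM, 20 were higher and 15 lower after siRNA.1 and 24 higher and 19 lower after siRNA.2, with medians of 0.017 and 0.076. Among all 859 other chromosome 19 genes of that level the counts were 157 and 152 after siRNA.1 and 183 and 165 after siRNA.2. ZNF genes of other chromosomes also had more higher than lower calls, with 73 of 219 higher and 21 lower after siRNA.1 (median 0.15) and 80 higher and 20 lower after siRNA.2 (median 0.18).

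**Figure D2:**
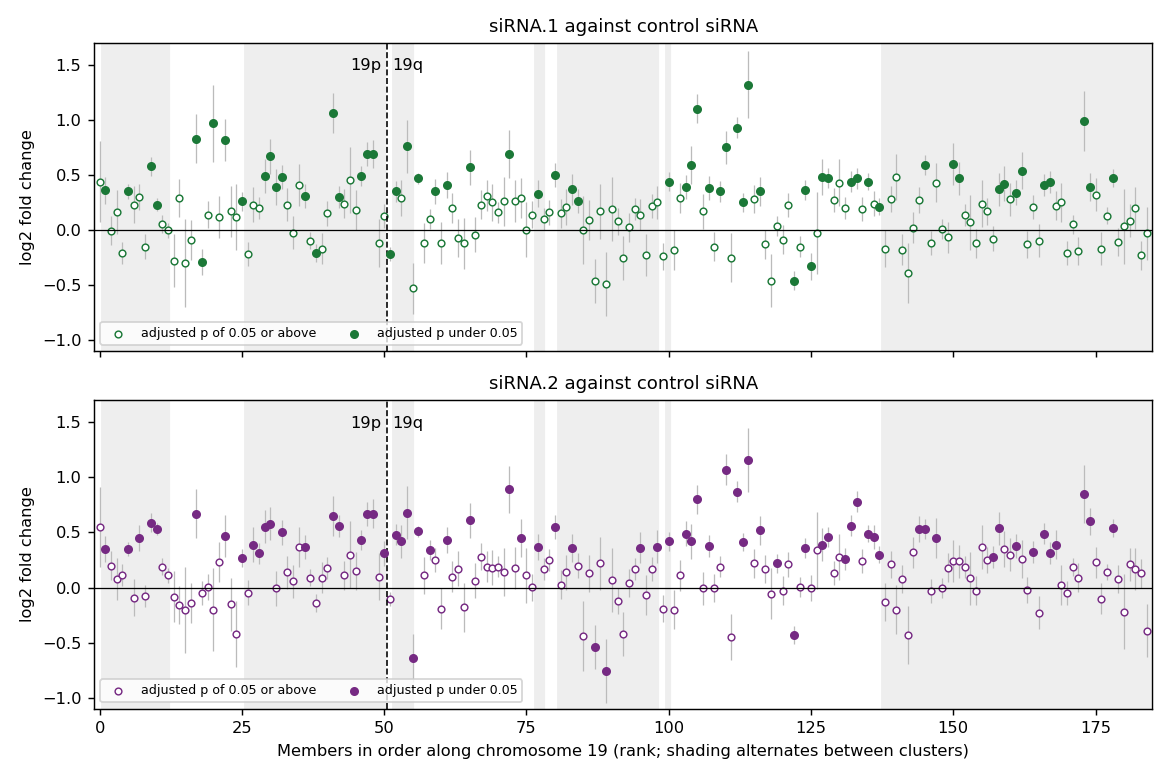
Log2 fold change of the 185 members against control siRNA (upper panel siRNA.1, lower panel siRNA.2) by rank along chromosome 19, with vertical lines for ± 1 SE and filled points for an adjusted p under 0.05. Shading alternates between clusters and the dashed line divides 19p from 19q; filled points lie mostly above 0 on both arms.

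The proteins differed in domain content. Of the 185 members, 182 are annotated as protein coding and 3 as pseudogenes in GENCODE release 44, and translated canonical transcripts held between 1 and 31 zinc fingers with a median of 12. A KRAB box was called in 152 of the 182 proteins from a 20-position pattern with at least 12 matches. Of these 152 genes, 54 were higher and 4 lower after siRNA.1 and 57 higher and 4 lower after siRNA.2, with medians of 0.23 and 0.20. Of the 30 without a KRAB box, 5 were higher and 1 lower after siRNA.1 and 10 higher and 0 lower after siRNA.2. Their medians were 0.13 and 0.17. Higher shares were 35.5% and 37.5% with a KRAB box and 16.7% and 33.3% without one, against 20% and 21.1% of genes of at least 0.5 FPKM. After siRNA.1 the higher share without a KRAB box was thus under the background. Lower shares without one were 3.33% and 0%, against 20.5% and 20.3%.

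ZNF genes of other chromosomes were divided in the same way. Of 97 ZNF genes with a KRAB box there, 40 were higher and 2 lower after siRNA.1 and 38 higher and 2 lower after siRNA.2 (medians 0.26 and 0.24), and of 113 without one, 32 were higher and 19 lower after siRNA.1 and 41 higher and 18 lower after siRNA.2 (medians 0.089 and 0.12). Members with 12 fingers or fewer and members with more had medians of 0.21 and 0.23 after siRNA.1 and of 0.19 and 0.21 after siRNA.2.

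Divided wherever neighbouring symbols start more than 1 Mb apart, the genes formed 17 groups, called clusters here, 7 of which held at least 10 members. Those of ZNF333, ZNF861P, ZNF536, ZNF507 and ZNF473 held only 1 symbol each and are single genes. The cluster from ZNF175 to ZNF331 (chr19:51571283-53580269, 37 members) had 17 higher and 2 lower after siRNA.1 and 19 higher and 1 lower after siRNA.2, with medians of 0.27 and 0.28. The cluster from ZNF101 to ZNF254 next to the centromere on 19p (chr19:19668796-24129968, 25 members) had 10 higher and 1 lower after siRNA.1 and 12 higher and 0 lower after siRNA.2, with medians of 0.24 and 0.31. The largest, from ZNF628 to ZNF446 near the end of 19q (chr19:55476617-58481230, 47 members), had 12 higher after siRNA.1 and 13 after siRNA.2, and 0 lower in both. Its higher shares were 25.5% and 27.7%, near the 20% and 21.1% of genes of at least 0.5 FPKM. The lower shares of those genes were 20.5% and 20.3%. Higher shares were also near the background from ZNF565 to ZNF573 (21 members), at 23.8% and 28.6%, with 0 lower. They were 45.9% and 51.4% from ZNF175 to ZNF331 and 40% and 48% from ZNF101 to ZNF254.

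Clusters with fewer calls were found on both arms. From ZNF575 to ZNF296 (chr19:43525497-45076587, 18 members), 2 members were higher and 0 lower after siRNA.1, and 3 higher and 2 lower after siRNA.2. In the cluster from ZNF653 to ZNF791 on 19p (13 members), the median was 0.14 after siRNA.1 and -0.082 after siRNA.2, with 4 and 3 members higher and 1 and 0 lower. Higher shares were 11.1% and 16.7% in the first of these and 30.8% and 23.1% in the second. No test of a difference between clusters was made.

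The members with the largest rise were in several clusters, and 4 of the leading 8 lay in the cluster from ZNF175 to ZNF331. ZNF610 (chr19:52336243-52367778) had 0.31, 0.45 and 0.36 FPKM in controls, 1.24, 0.79 and 0.84 after siRNA.1 and 0.8, 1.09 and 0.67 after siRNA.2. All its siRNA libraries were above all control libraries, and it rose by 1.32 ± 0.30 on the log2 scale after siRNA.1 (adjusted p = 6.07e-05) and by 1.16 ± 0.29 after siRNA.2 (adjusted p = 0.000473). The control mean of ZNF610 was 0.373 FPKM, under the 0.5 FPKM threshold, so it is a member only through its siRNA libraries. ZNF350, also called ZBRK1 and known as a repressor that binds BRCA1 (chr19:51964340-51986856), had 2.11, 1.64 and 1.96 FPKM in controls, 4.34, 3.68 and 4.46 after siRNA.1 and 3.43, 3.29 and 3.31 after siRNA.2. It rose 2.15-fold after siRNA.1 (log2 1.10 ± 0.13, adjusted p = 8.83e-17) and 1.74-fold after siRNA.2 (log2 0.80 ± 0.13, adjusted p = 3.91e-09), again with no overlap with the control libraries.

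ZNF766 and ZNF616, KRAB zinc finger genes between those of ZNF350 and ZNF610, rose as well. ZNF766 had 2.15, 2.29 and 2.4 FPKM in controls, 4.36, 4.48 and 4.45 after siRNA.1 and 4.15, 4.19 and 4.23 after siRNA.2. Its libraries were close together within each group, and it rose by 0.93 ± 0.097 after siRNA.1 (adjusted p = 4.27e-20) and by 0.87 ± 0.096 after siRNA.2 (adjusted p = 7.78e-18). ZNF616 had 1.36, 1.2 and 1.35 FPKM in controls, 2.23, 2.35 and 2.16 after siRNA.1 and 2.45, 2.69 and 3.13 after siRNA.2. It rose by 0.75 ± 0.15 and by 1.07 ± 0.14 on the log2 scale (adjusted p = 4.01e-06 and 2e-12), with its siRNA.2 libraries the highest.

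The other 4 leading members were at or under 1.4 FPKM in all libraries. ZNF418, in the cluster from ZNF628 to ZNF446, had 0.36, 0.57 and 0.32 FPKM in controls, 0.99, 0.81 and 0.74 after siRNA.1 and 0.81, 0.84 and 0.63 after siRNA.2. Like ZNF610, ZNF418 was under 0.5 FPKM in the control mean and is a member only through its siRNA libraries. ZNF429 on 19p had 0.58, 0.68 and 0.41 FPKM in controls, 1.07, 1.36 and 1.11 after siRNA.1 and 0.77, 1.01 and 0.84 after siRNA.2. Their log2 fold changes were 0.99 and 0.85 for ZNF418 (adjusted p = 0.001 and 0.00546) and 1.06 and 0.65 for ZNF429 (adjusted p = 3.37e-08 and 0.00177), and the siRNA libraries of both were above the control libraries. ZNF569 had 0.58 to 0.63 FPKM in controls, 0.82 to 1.23 after siRNA.1 and 1.01 to 1.3 after siRNA.2, and ZNF441 on 19p had 0.44 to 0.72, 1.07 to 1.22 and 0.9 to 1.13 FPKM. ZNF569 rose by 0.69 and 0.89 (adjusted p = 0.0063 and 0.000153) and ZNF441 by 0.83 and 0.67 (adjusted p = 0.000893 and 0.00893). At these low levels 4 of the calls rested on single libraries. Without control replicate 3, the siRNA.2 calls of ZNF418 and ZNF429 were lost (log2 0.69 and 0.46), and that of ZNF429 was also lost with limma at each pseudocount (log2 0.27 to 0.66). The siRNA.2 call of ZNF441 was lost without control replicate 1 or siRNA.2 replicate 2 (log2 0.48 and 0.57), and the siRNA.1 call of ZNF569 without siRNA.1 replicate 3 (log2 0.51).

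ZNF28 was the 1 member that fell with both siRNAs without overlap with the control libraries, and it lies in the same cluster as ZNF350 and ZNF610 (chr19:52797408-52857600). It had 6.19, 6.73 and 7.26 FPKM in controls, 4.47, 5.74 and 4.75 after siRNA.1 and 5.43, 4.86 and 4.84 after siRNA.2. It fell by 0.46 on the log2 scale after siRNA.1 (adjusted p = 4.69e-07) and by 0.43 after siRNA.2 (adjusted p = 2.4e-06). The other lower calls were ZNF440, ZNF431, ZNF507 and ZNF888 after siRNA.1, between -0.33 and -0.21, and ZNF792, ZNF230 and ZNF223 after siRNA.2, between -0.76 and -0.54. They were named after their values were seen, and ZNF223 is uncertain because 43.2% of its 75-base stretches are shared with transcripts of other genes.

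**Figure D3:**
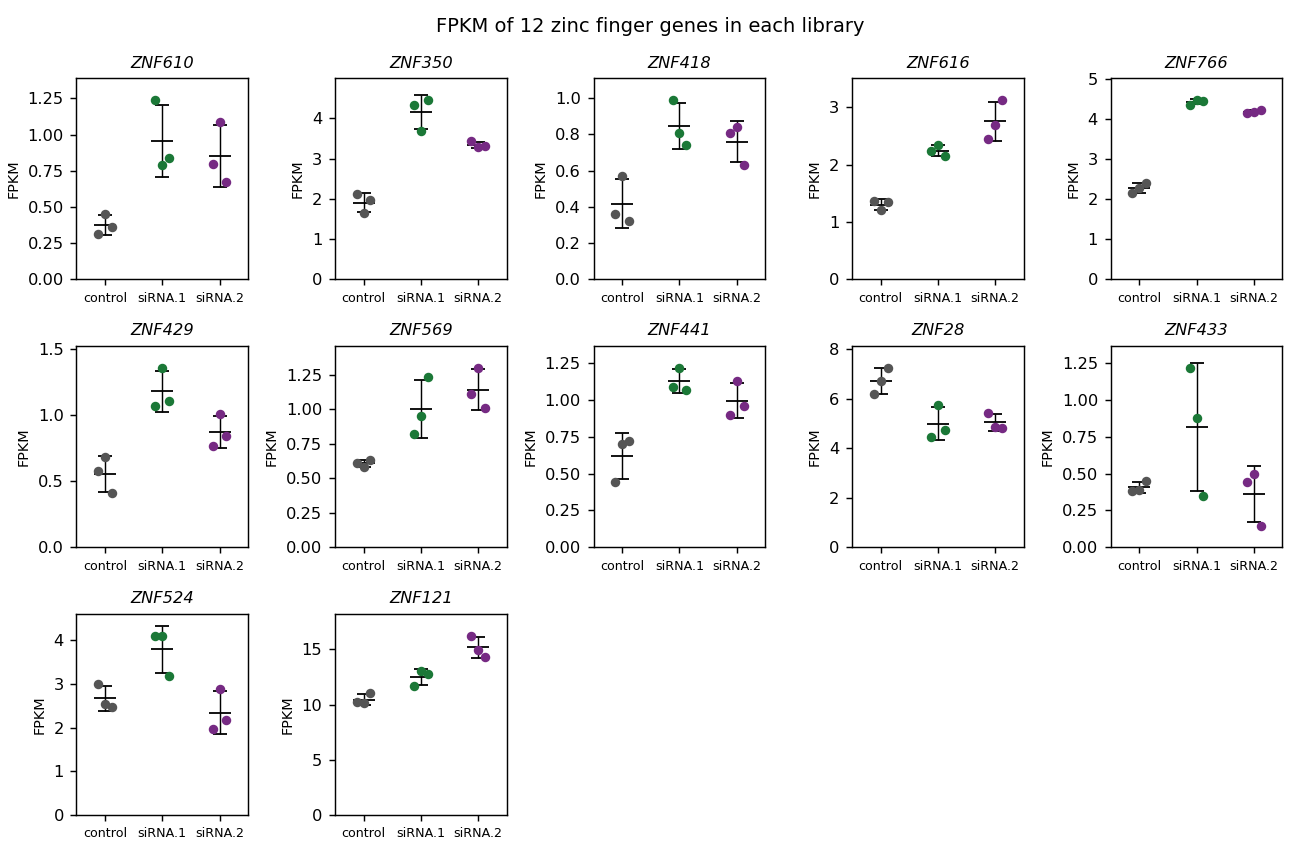
FPKM of 12 members in each library by group, with the mean (horizontal bar) ± SD of 3 libraries, on axes that start at 0. The 8 leading members stand higher in all 6 siRNA libraries than in the control libraries, ZNF28 stands lower, and ZNF433 spreads from 0.35 to 1.22 FPKM among the siRNA.1 libraries.

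The most abundant member was ZNF146, whose protein consists almost wholly of zinc fingers and has no KRAB box. It had 30.55, 32.11 and 31.0 FPKM in controls, 43.31, 44.33 and 44.74 after siRNA.1 and 45.05, 44.91 and 44.5 after siRNA.2. It rose 1.39-fold after siRNA.1 (log2 0.47 ± 0.049, adjusted p = 6.29e-20) and 1.42-fold after siRNA.2 (log2 0.51 ± 0.049, adjusted p = 1.33e-23), far beyond the spread within groups. ZNF317, at 10.8 ± 0.787 FPKM in controls (SD, n = 3), rose by 0.35 in both comparisons (adjusted p = 9.87e-07 and 7.81e-07). ZNF121, at 10.5 ± 0.491 FPKM in controls, rose to 12.5 ± 0.718 after siRNA.1 and 15.2 ± 0.974 after siRNA.2. ZNF581, at 7.67 ± 1.31 FPKM in controls, had a log2 fold change of 0.27 after siRNA.1 (adjusted p = 0.083) and rose by 0.53 after siRNA.2 (adjusted p = 4.95e-05), and 16.7% of its 75-base stretches are shared with other genes.

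Members known to act on transposable elements or on the zinc finger clusters were described separately, in a chosen list that also held the imprinted ZNF331 and the finger-only ZNF146. ZNF91, which represses SVA elements, had 2.49, 2.1 and 2.03 FPKM in controls, 3.03, 3.55 and 2.88 after siRNA.1 and 3.08, 2.85 and 3.02 after siRNA.2. It rose by 0.49 ± 0.092 after siRNA.1 (adjusted p = 1.26e-06) and by 0.43 ± 0.091 after siRNA.2 (adjusted p = 2.01e-05), with no overlap with the control libraries. ZNF93, which represses a group of LINE-1 elements, had 0.98, 1.15 and 1.26 FPKM in controls, 1.63, 2.03 and 1.87 after siRNA.1 and 1.82, 1.59 and 1.71 after siRNA.2. It rose by 0.67 and 0.58 (adjusted p = 0.000117 and 0.00101), and ZNF649, which binds LINE-1 sequence, rose by 0.39 and 0.49 (adjusted p = 0.00263 and 6.6e-05). The siRNA.1 call of ZNF649 was lost without control replicate 1 or siRNA.1 replicate 2 (log2 0.30 each).

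Of the 9 members on that list, 5 passed the test with both siRNAs, namely these 3, ZNF146 and ZNF331, and the other 4 passed with neither. The share of all genes that passed with both was not counted, so this count has no background and describes the chosen list only. ZNF146 and ZNF331 were not listed for an action on transposable elements. ZNF331 rose by 0.30 after siRNA.2 (adjusted p = 0.000573) and by 0.21 after siRNA.1 (adjusted p = 0.0222), a call that was lost with DESeq2, with limma at each pseudocount and without control replicate 1 or 2 or siRNA.1 replicate 2 (log2 0.16 to 0.25). ZNF765 had log2 fold changes of 0.19 and 0.24 (adjusted p = 0.208 and 0.0849). The closely related pair ZNF417 and ZNF587, which bind HERV-K sequence, had -0.19 and 0.051 after siRNA.1 and 0.091 and 0.19 after siRNA.2, with adjusted p between 0.062 and 0.72, and both values are uncertain because 28.6% and 17.2% of their 75-base stretches are shared with other genes. ZNF274, which brings SETDB1 to the ends of other zinc finger genes, had 5.1, 4.91 and 4.89 FPKM in controls, 5.4, 5.48 and 5.73 after siRNA.1 and 5.33, 5.78 and 5.48 after siRNA.2. Its siRNA libraries were all above its control libraries, but its log2 fold changes of 0.13 ± 0.076 and 0.14 ± 0.075 did not pass (adjusted p = 0.206 and 0.14).

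A chosen list held 22 genes, all of which were tested. It took in TRIM28, SETDB1 and other corepressor genes along with general chromatin genes such as ATRX, DAXX, DNMT1 and UHRF1. A change in a listed gene is therefore not by itself a change in the partners of KRAB proteins. After siRNA.1, 2 were higher and 7 lower (9.09% and 31.8%), against 20% and 20.5% of the genes of at least 0.5 FPKM. After siRNA.2, 3 were higher and 5 lower (13.6% and 22.7%), against 21.1% and 20.3%, so that the lower share was near the background. The medians were -0.074 and 0.0061. TRIM28, which is also on chromosome 19, had 57.1 ± 1.86 FPKM in controls, 69.5 ± 3.73 after siRNA.1 and 64.5 ± 2.91 after siRNA.2, and rose by 0.26 (adjusted p = 5.68e-08) and 0.17 (adjusted p = 0.000877). MORC2, an ATPase that works with the HUSH silencing complex, rose by 0.25 and 0.23 (adjusted p = 6.4e-05 and 0.000236), and CBX3, a heterochromatin protein, rose by 0.097 after siRNA.2 (adjusted p = 0.0258).

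Lower members of that list included heterochromatin proteins and remodellers. CBX5, the gene of heterochromatin protein HP1 alpha, had 12 ± 0.644 FPKM in controls, 8.05 ± 0.75 after siRNA.1 and 7.71 ± 0.715 after siRNA.2, and fell by 0.60 and 0.65 (adjusted p = 6.79e-30 and 4.35e-35). CHD3, a remodeller that binds TRIM28, fell by 0.54 and 0.36 (adjusted p = 9.07e-28 and 3.17e-13). MPHOSPH8, of the HUSH complex, fell by 0.38 and 0.37 (adjusted p = 7.54e-06 and 7.13e-06), and ATRX fell by 0.30 and 0.33 (adjusted p = 4.54e-09 and 2e-11). SETDB1 fell by 0.16 after siRNA.1 (adjusted p = 0.0445) and had a log2 fold change of -0.073 after siRNA.2 (adjusted p = 0.438). CBX1 and SMARCAD1 fell by 0.16 and 0.28 after siRNA.1 (adjusted p = 0.0136 and 0.000127), and EHMT2 fell by 0.21 after siRNA.2 (adjusted p = 0.0217).

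Few members differed between the siRNAs. In siRNA.2 against siRNA.1, 5 members were higher and 2 lower, or 2.7% and 1.08%, where all genes tested gave 6.1% and 6.07% and genes of at least 0.5 FPKM gave 8.57% and 8.39%. ZNF genes of other chromosomes gave 2.74% higher and 2.74% lower, so low shares were not particular to the members. ZNF121 was higher after siRNA.2, at 16.26, 14.97 and 14.35 FPKM against 11.67, 13.04 and 12.73 after siRNA.1 and 10.19, 10.15 and 11.02 in controls, a log2 difference of 0.30 ± 0.056 (adjusted p = 4.94e-06). ZNF772, ZNF525 and ZNF558 were also higher, by 0.36, 0.30 and 0.32 (adjusted p = 0.00767, 0.00807 and 0.0189), and their siRNA.2 libraries did not overlap those after siRNA.1. The calls of all of them were lost with limma at each pseudocount and without siRNA.2 replicate 3, and that of ZNF558 also with DESeq2. The seventh call, ZNF324, had 0.36 (adjusted p = 0.0481) and was named after its value was seen, and 30.5% of its 75-base stretches are shared.

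Levels of ZNF433 and ZNF524 went the other way, lower under siRNA.2 than under siRNA.1. ZNF433 had 0.38, 0.39 and 0.45 FPKM in controls, 1.22, 0.88 and 0.35 after siRNA.1 and 0.44, 0.5 and 0.14 after siRNA.2, so its groups overlapped. Its means were 0.407 FPKM in controls and 0.36 after siRNA.2, under the 0.5 FPKM threshold, against 0.817 after siRNA.1. It is thus a member only through its siRNA.1 libraries, the group in which it is higher. Its log2 difference was -1.17 ± 0.35 (adjusted p = 0.0102). This call was lost with DESeq2 (-1.18) and with limma at each pseudocount (-1.17 to -0.4). It also no longer passed without siRNA.1 replicate 1 (-0.75) or without siRNA.2 replicate 3 (-0.78). ZNF524 had 4.1, 4.11 and 3.18 FPKM after siRNA.1 and 1.96, 2.89 and 2.18 after siRNA.2, a log2 difference of -0.68 ± 0.21 (adjusted p = 0.015), which did not pass without siRNA.1 replicate 1 or 2 or siRNA.2 replicate 1 or 3. Exonic bases that overlap another gene make up 17.5% of ZNF433 and 18.9% of ZNF524, and strandedness of the counting is not stated.

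Sequence shared among these duplicated genes limits single values. In 29 members at least 10% of the 75-base stretches are shared with other genes' transcripts, with a highest share of 43.2% and a median over all members of 0.6%, and in 45 members at least 10% of exonic bases overlap another gene. Without the 50 members of either kind, a choice made after seeing the data, 50 of 135 were higher and 5 lower after siRNA.1 and 59 higher and 3 lower after siRNA.2.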

How the data were processed

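Poly(A)+ RNA of TE13 cells was sequenced in 9 libraries, grouped by their labels as control siRNA, siRNA.1 and siRNA.2. The authors aligned reads to GRCh38 with STAR, counted them per gene with featureCounts and deposited raw counts and FPKM. The deposited FPKM equal the counts divided by exonic length and library total to within 0.005. Versions, annotation release and strandedness are not given in the sources used here.

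The members, the lists and the rule for named genes were chosen with earlier results of these data known. Counts were tested with edgeR 4.0.16 (TMM, quasi-likelihood, 1 fit of 9 libraries, R 4.3.3) over 21397 genes averaging 0.1 FPKM or more. P-values were adjusted by Benjamini-Hochberg and called under 0.05. SE was taken from the log2 fold change and the F statistic, as |log2 fold change|/√F. Alternatives used DESeq2 1.42.0 and limma 3.58.1 on log2(FPKM + 0.1), with pseudocounts of 1 and 0.01, other filters, scalings, thresholds and a replicate block, and each library left out. The tests were tried on simulated data.

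Named members were, in each direction, the 8 with the largest mean log2 fold change among those past the threshold with both siRNAs and without overlap with control. This condition was met by 48 higher and 1 lower member, and it was not counted over all genes, so no background share stands beside it. Also named were the 6 with the smallest adjusted p between the siRNAs, the 4 most abundant, 3 on each side of the 0.5 FPKM threshold, and a list of 9 known genes. Proteins, fingers, KRAB boxes and shared 75-mers came from GENCODE release 44, in which all 185 members were found by identifier, 174 with the same start and end. Clusters end at gaps over 1 Mb, and the arms were divided at 26 Mb. Python 3.11.15, pandas 2.3.3 and numpy 2.4.6 were used.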

Additional observations from a re-analysis of the deposited data

Results flagged for a closer look

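The 6 named members with the smallest adjusted p between the siRNAs differed by the direct edgeR test of siRNA.2 against siRNA.1. ZNF121, ZNF772, ZNF525 and ZNF558 were higher after siRNA.2, by 0.30, 0.36, 0.30 and 0.32 on the log2 scale. ZNF433 and ZNF524 were lower, with log2 differences of -1.17 and -0.68. ZNF121 alone of the 6 passed under every alternative tried. The call of ZNF433, a member only through its siRNA.1 libraries, was lost with DESeq2 and with limma at each pseudocount. It was also lost without siRNA.1 replicate 1 (1.22 FPKM) and without siRNA.2 replicate 3 (0.14 FPKM). Groups of 3 libraries were not examined for outlying samples.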

How the results depend on the processing

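Counts of higher members with each siRNA stayed within 1.5 times of 59 and 67 under every alternative tried (46 to 63 and 50 to 70), and with a library left out they were 49 to 59 and 52 to 68. Lower members after siRNA.1 numbered 5, but 3 with DESeq2 or with library totals, 2 with limma at each pseudocount or without a filter, and 2 to 5 with a library left out. With siRNA.2 they numbered 4, but 2 with limma at each pseudocount or without a filter, 1 for members of at least 1 FPKM, and 2 to 4 with a library left out. Between the siRNAs, 5 higher members became 3 with DESeq2, 2 with limma and 1 to 6 with a library left out (1 without siRNA.2 replicate 3). There 2 lower members became 4 with only the 2 groups, 1 with DESeq2, limma, members of at least 1 FPKM or members chosen on control libraries, 0 without shared sequence and 0 to 4 with a library left out (0 without siRNA.2 replicate 3).

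The median after siRNA.1 was 0.15 and after siRNA.2 0.14 with limma at a pseudocount of 1, otherwise 0.19 to 0.24 and 0.18 to 0.23. The 19q minus 19p difference after siRNA.1 was -0.011 for members of at least 1 FPKM, -0.0097 at 0.2 FPKM, -0.011 without shared sequence and -0.043 to 0.011 with a library left out. With siRNA.2 it was 0.031, 0.032, -0.054 and -0.055 to 0.046. The cause of these moves was not tested. Replicate numbers did not pair the libraries (same-number correlations of deviations from -0.193 to 0.107 over 9 pairs), and a replicate block gave 58 higher and 5 lower after siRNA.1, 66 and 4 after siRNA.2, and 4 and 2 between the siRNAs.

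Of 1178 values for named members under alternatives, 1092 kept direction and side of the threshold, 69 no longer passed, 7 came to pass and 10 reversed. None of the reversed had passed. They were ZNF571 after siRNA.1 (-5.5e-05 with DESeq2, -0.19 without control siRNA replicate 3, -0.14 without siRNA.1 replicate 1) and siRNA.2 (-0.08, up to 0.29 with other libraries left out), ZNF417 after siRNA.2 (-0.015 to 0.16), ZNF433 after siRNA.2 (-0.53 to 0.19), ZNF587 after siRNA.1 (-0.00056 and -0.0019) and ZNF772 after siRNA.1 (-0.16 to 0.031). Low counts limit members near 0.5 FPKM, whose counts reach down to 10 in a library.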
